A study of Mus musculus with 6 samples.

Results

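The genes described here are the amino acid transporters of the solute carrier families Slc1, Slc3, Slc7, Slc36, Slc38 and Slc43. All 42 rows of the count table whose gene symbol belongs to 1 of these 6 families were taken, out of 23420 gene rows. Rows were taken by gene symbol, but the families were chosen with earlier results of these data known. Of the 42, 24 had enough reads to be tested between groups, 9 had a few reads, and 9 had no read in any library.

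Messenger RNA was sequenced from cultured mouse epidermal keratinocytes, the cells that build the outer layer of the skin. All cells carried loxP-flanked Gata6 alleles (Gata6 fl/fl), Gata6 being a zinc finger transcription factor. The 3 libraries labelled WT lacked the transgene K14CreERT2 and the 3 libraries labelled iKO carried it. K14CreERT2 is a tamoxifen-activated Cre recombinase under the keratin 14 promoter of basal keratinocytes. Both groups were grown in low calcium E media, were at passage 8 to 10, and received 1 µM 4-hydroxytamoxifen over 6 hours. The comparison asks which transcripts differ between cells with and without the induced deletion. Nothing in the labels ties the replicates to separate cultures or mice, and every p-value below therefore rests on library spread that could be technical. One iKO column of the count table, numbered 33, matches no sample title by its number and is used as an iKO replicate named iKO 33. In such bulk RNA, fewer cells of a type and less RNA per cell cannot be told apart.

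As background, cells take up amino acids through carriers that differ in substrate and driving force. Heteromeric carriers pair a light chain of the Slc7 family, which moves the substrate, with a heavy chain of the Slc3 family, which brings it to the membrane. Carriers of the Slc1 and Slc38 families use the sodium gradient, and several Slc36 and Slc38 proteins work in the lysosome, where amino acid levels are read by the growth kinase mTORC1. Several of these genes, among them Slc7a5, Slc7a11, Slc3a2, Slc7a1 and Slc38a2, are known targets of ATF4, the transcription factor of the amino acid deprivation response. Proliferating keratinocytes depend on such uptake for protein synthesis and on cystine uptake for glutathione.

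The libraries held 21943467 to 83337263 reads assigned to genes, and the 42 transporters took 0.116% to 0.207% of them. Gata6 itself did not follow the labels. It stood at 0.519 to 5.37 CPM (counts scaled to a common library size) in the libraries labelled WT and at 14.2 to 21.02 CPM in those labelled iKO (edgeR adjusted p = 0.180; DESeq2 adjusted p = 0.00208). Counts per gene may include exons outside the deleted part and do not check the deletion, so groups are named by their labels and each direction below is between libraries so labelled. Xist stood at 604.6 to 888.5 CPM in the libraries labelled WT and at 0.0824 to 2.62 CPM in those labelled iKO, while the Y-linked gene Eif2s3y stood at 0 to 0.0507 and at 33.7 to 53.9 CPM. Sex of the cells and genotype label cannot be told apart in any result below. Non-uniquely aligned reads made up 29.5% to 30.5% of counts in the libraries labelled WT and 21.7% to 26.5% in those labelled iKO. All 9 keratinocyte markers were measured, with summed levels of 32901 to 46244 CPM (WT) and 34966 to 51267 CPM (iKO). Single keratinocyte markers differed in level, named after their values were seen: Trp63 stood at 307 to 331 CPM in WT and 191 to 205 CPM in iKO libraries (log2 fold change -0.68, DESeq2 adjusted p = 9.65e-09, edgeR adjusted p = 0.0529). Cdh1 had a log2 fold change of 0.55 (DESeq2 adjusted p = 0.00467, edgeR adjusted p = 0.130). Krt15 had -1.28 (SE 0.49, DESeq2 adjusted p = 0.0933, edgeR adjusted p = 0.289), passed in neither, and its groups overlapped. The summed fibroblast markers reached 3.13 and 4.42 CPM at most, with Dcn and Lum at 0 in all 6 libraries, and the summed immune markers reached 0.455 and 0.467 CPM, with Cd207 at 0. Summed melanocyte markers lay between 6.08 and 11.9 CPM (WT) and between 5.69 and 8.47 CPM (iKO), with Dct at 0. Summed endothelial markers lay between 9.31 and 19.05 CPM (WT) and between 7.29 and 8.94 CPM (iKO). The part of the alignment shares and of the keratinocyte and endothelial markers in the results was not tested.

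None of the 24 tested transporters passed edgeR's quasi-likelihood test at an adjusted p of 0.05, against 43 of 12672 genes in the whole table (0.339%). Slc7a5 came nearest, at an adjusted p of 0.0609, and ranked at place 59 of all tested genes by p. At an unadjusted p under 0.05 there were 6 transporters, Slc7a5, Slc3a2, Slc38a1, Slc7a1, Slc7a8 and Slc1a4, all 6 with lower values in the libraries labelled iKO. That is 25.0% of those tested, where 7.7% of all tested genes were lower and 7.32% higher at this p. The 6 became 3 without iKO 4, and 4 without WT 2, without WT 3 or without iKO 3. DESeq2 called 3 of the 24, Slc7a5, Slc38a1 and Slc3a2, all lower, and 6.12% of all tested genes. The authors' deposited table gave an adjusted p under 0.05 to 5.9% of the genes with such a p, and to 4 of the transporters. These were, in the authors' deposited table, Slc7a5 (adjusted p of 1.98e-05), Slc38a1 (0.00202) and Slc3a2 (0.0327), with negative log2 fold changes of -0.73, -1.20 and -0.44, and Slc1a1 (0.00422), with 1.11. The authors' log2 fold changes can be smaller in size than those of edgeR. For Slc38a1 they were -1.20 beside -1.88, and for Slc1a3 0.35 beside 1.44, so the sizes are not on a common scale.

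**Figure D1:**
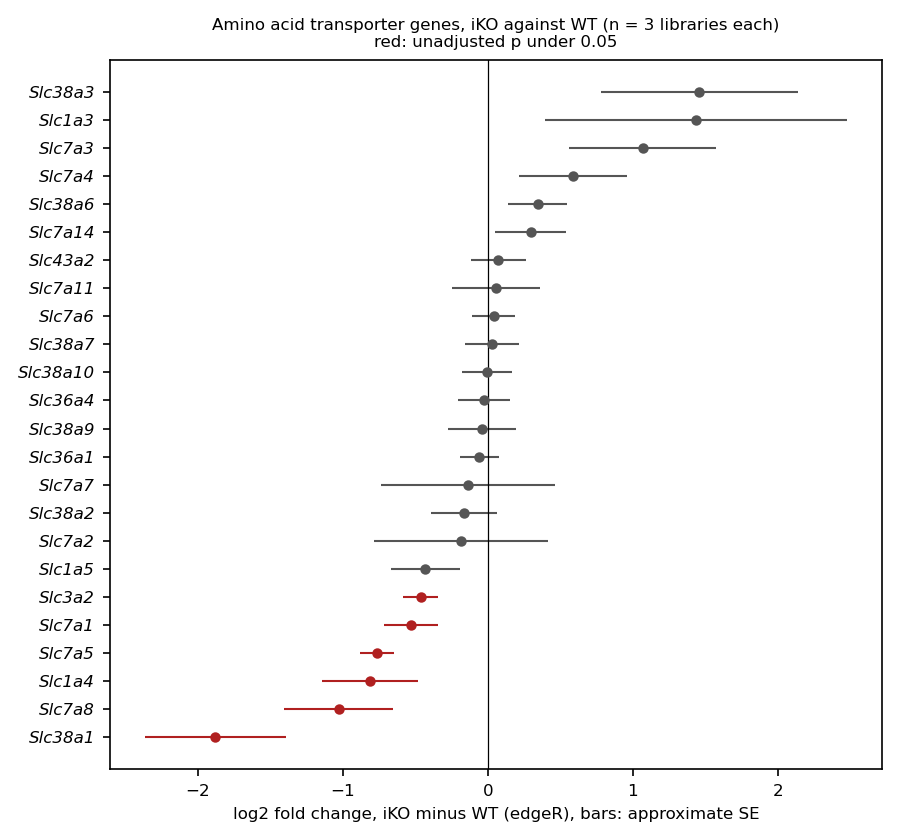
Log2 fold change (libraries labelled iKO minus libraries labelled WT, horizontal axis) of the 24 tested transporter genes, with approximate standard errors as bars. The 6 genes in red have an unadjusted p under 0.05, and their values lie between -1.88 and -0.46.

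Of the 24 tested genes, these 6 included, 14 had negative and 10 had positive log2 fold changes, where 48.8% of all tested genes had negative ones. Their median was -0.03, beside 0.01 over all tested genes, and it changed sign under some alternatives. The groups did not overlap for 6 genes lower in the libraries labelled iKO (11.3% of all tested genes did so). They were Slc7a5, Slc3a2, Slc38a1, Slc7a1, Slc7a8 and Slc1a5, with Slc1a5 in place of Slc1a4, which overlapped. The groups also did not overlap for 4 genes higher (10.5%), Slc38a3, Slc38a6, Slc7a3 and Slc7a4. Of these, Slc38a3 and Slc7a4 entered the test through their iKO libraries alone, since no WT library reached the filter's level of 0.254 CPM. The summed level of all 42 transporters was 1655, 2075 and 1677 CPM in the WT libraries 2, 3 and 4. It was 1217, 1398 and 1593 CPM in the iKO libraries 3, 4 and 33. The highest iKO sum lay below the lowest WT sum. A few abundant genes carry this sum, which therefore does not describe most of the 42 genes. Mean levels in WT and iKO libraries were 620 and 554 CPM for Slc38a2 and 316 and 219 CPM for Slc7a1. For Slc3a2 they were 271 and 196 CPM and for Slc7a5 192 and 113 CPM.

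Levels between genes are compared per kilobase of exon (CPM per kb). The order over both groups was led by Slc38a2 at 66.4 CPM per kb, Slc3a2 at 66.2, Slc7a5 at 41.02 and Slc7a1 at 23.2. Slc38a10 (12.4), Slc7a6 (11.2), Slc1a4 (9.36) and Slc7a8 (8.54) came next. Slc38a2 and Slc3a2 did not differ beyond their spread, and neither did adjacent genes from Slc38a10 to Slc7a8. With the longest transcript as length, 13 of the 24 levels moved by at least their spread between libraries. That of Slc38a1, for example, was 4.93 in place of 2.08 CPM per kb. The order, the shares and the later ratios between genes are therefore for exon length only. Slc38a2, Slc3a2 and Slc7a5 together with Slc7a1 accounted for most of the summed level per kb: 23.7%, 26.4%, 17.8% and 9.30% in the libraries labelled WT and 28.2%, 25.3%, 13.9% and 8.56% in those labelled iKO. By exon length, the levels of the other 16 were below 5 CPM per kb, from Slc38a7 (4.66) and Slc36a1 (2.93) to Slc38a3 (0.0545) and Slc7a2 (0.0349).

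**Figure D2:**
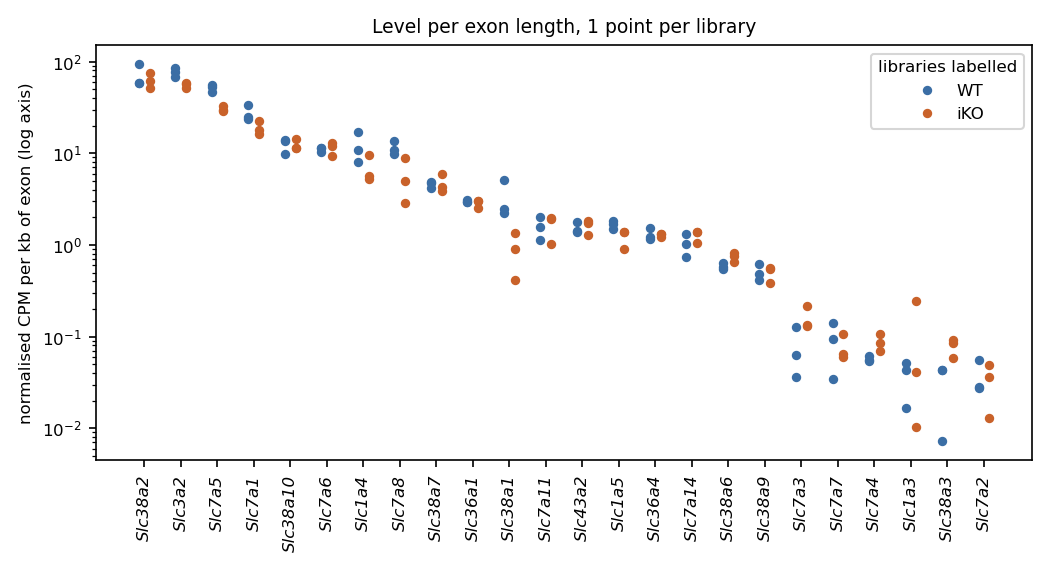
Normalised CPM per kilobase of exon (vertical log axis) of the 24 tested transporters, ordered by their mean level, with 1 point for each library of each group. Levels span from above 50 CPM per kb for Slc38a2 and Slc3a2 to below 0.1 for Slc7a2, and the WT and iKO points of Slc7a5 and Slc38a1 are apart.

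Slc3a2 encodes the CD98 heavy chain, the common partner of several Slc7 light chains (chromosome 19, 8706882 to 8723369, minus strand, mm10). Its level was 298, 274 and 240.4 CPM in the WT libraries 2, 3 and 4, and 201.3, 181 and 206 CPM in the iKO libraries 3, 4 and 33. All 3 iKO values lay below all 3 WT values. The log2 fold change was -0.46 (SE 0.12), with an edgeR adjusted p of 0.168 and a DESeq2 adjusted p of 0.0243, on opposite sides of the threshold. Slc3a1, the heavy chain of the kidney and gut cystine carrier, had 22 reads over all 6 libraries.

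Slc7a5 encodes the light chain LAT1, which exchanges leucine and other large neutral amino acids for glutamine (chromosome 8, 121881150 to 121907694, minus strand). It measured 171, 198 and 206 CPM in the WT libraries 2, 3 and 4 and 109, 122 and 107 CPM in the iKO libraries 3, 4 and 33. The groups were apart by more than the spread within them, 192 ± 18.05 against 113 ± 8.14 CPM (SD, n = 3). The log2 fold change of -0.77 (SE 0.12) corresponds to a 1.70-fold higher level in the libraries labelled WT. Leaving out single libraries moved it only between -0.84 and -0.72, with edgeR adjusted p-values of 0.109 to 0.205. The DESeq2 adjusted p over all 6 libraries was 4.78e-06.

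Slc7a8 encodes LAT2, a second light chain for neutral amino acids (chromosome 14, 54722209 to 54781946, minus strand). Its level was 54.9, 49.5 and 67.8 CPM in the WT libraries 2, 3 and 4, and 14.5, 25.1 and 44.5 CPM in the iKO libraries 3, 4 and 33. The iKO libraries differed widely, and iKO 33 came close to WT 3 without reaching it. The log2 fold change was -1.03 (SE 0.38, edgeR adjusted p = 0.279), -0.72 without iKO 3 and -1.53 without iKO 33.

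The other tested light chains had overlapping groups. Slc7a6, the light chain y+LAT2 for arginine and glutamine exchange, measured 52.3, 47.7 and 52.03 CPM in the WT libraries 2, 3 and 4 and 42.4, 59.1 and 54.9 CPM in the iKO libraries 3, 4 and 33. The WT values lay within the range of the iKO values (log2 fold change 0.04, SE 0.15). Slc7a11, the cystine and glutamate exchanger light chain xCT (chromosome 3, 49892526 to 50443614, minus strand), measured 15.6, 21.7 and 28.1 CPM in the WT libraries 2, 3 and 4. It measured 14.4, 26.6 and 27.1 CPM in the iKO libraries 3, 4 and 33. The values differed widely within each group and the groups overlapped (log2 fold change 0.06, SE 0.30). Slc7a7, the light chain y+LAT1, was near the detection limit, at 0.114 to 0.461 CPM in WT and 0.200 to 0.352 CPM in iKO libraries (log2 fold change -0.13, SE 0.60). Slc7a10, a light chain for small neutral amino acids, had no read.

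**Figure D3:**
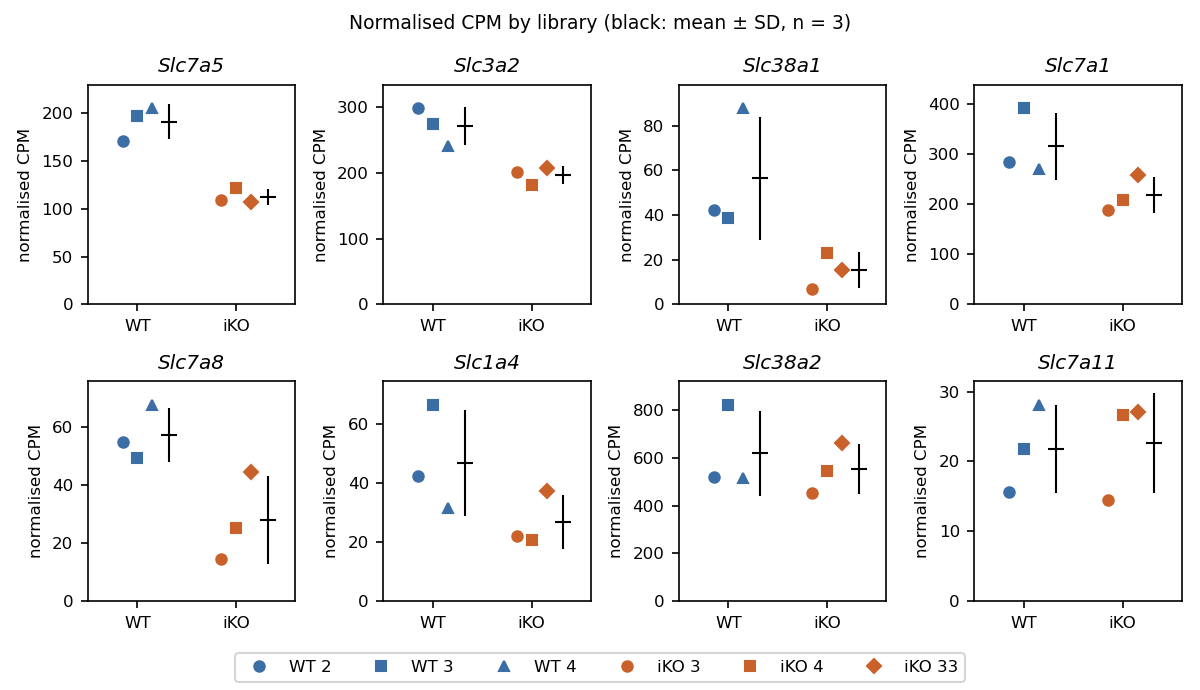
Normalised CPM (vertical axis from 0) in each of the 6 libraries for the 6 transporters with an unadjusted p under 0.05 and for Slc38a2 and Slc7a11, with the mean ± SD of each group in black. The groups are apart for Slc7a5, Slc3a2, Slc38a1, Slc7a1 and Slc7a8, and they overlap for Slc1a4, Slc38a2 and Slc7a11.

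Set against Slc3a2 within each library, per kilobase of exon, Slc7a5 stood at 0.547, 0.688 and 0.814 of the heavy chain in the WT libraries 2, 3 and 4. In the iKO libraries 3, 4 and 33 it stood at 0.517, 0.640 and 0.492. These ratios overlap between the groups. The ratio of Slc7a8 to Slc3a2 was 0.152 ± 0.0405 and 0.1001 ± 0.0506 (SD, n = 3), also with overlap. Slc7a6 had 0.135 to 0.167 in WT and 0.163 to 0.251 in iKO libraries. The 5 tested light chains together amounted to 1.003 ± 0.194 of the heavy chain in the libraries labelled WT and to 0.887 ± 0.139 in those labelled iKO (SD, n = 3).

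**Figure D4:**
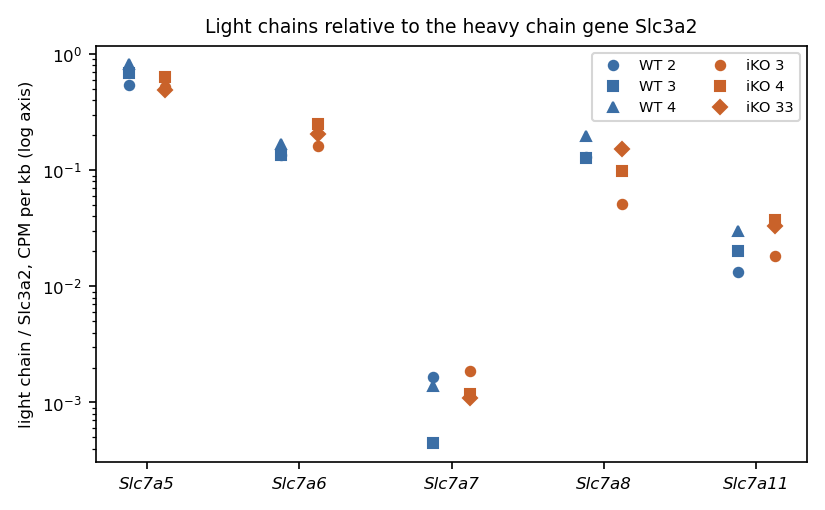
Level per kilobase of exon of each tested Slc7 light chain gene divided by that of the heavy chain gene Slc3a2 in the same library (vertical log axis), 1 point per library. Slc7a5 is the most abundant light chain in all 6 libraries at 0.492 to 0.814 of Slc3a2, and Slc7a7 lies below 0.002.

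Promoter sequence was examined because these genes include known ATF4 targets. RefSeq entries on GRCm38.p6 (mm10) were found for 31 of the 42 genes and 17 of the 24 tested ones. Slc7a5, Slc38a1 and Slc1a5 had no entry. The 250 bases before each start were searched on both strands for the core of the C/EBP-ATF response element bound by ATF4 (TGATGNAA), for the E-box bound by Myc family proteins (CACGTG), and for the GATA motif (AGATAA or AGATAG, also with T as the first letter). The response element core occurred in 3.45% of all 32851 windows. Among the 17 tested transporters with an entry, it occurred in Slc7a11, with 2 copies, and in Slc7a7, in the windows of 2 of its alternative starts. The E-box (6.02% of all windows) occurred in 3 of the 17, Slc36a1, Slc38a7 and Slc7a14. The GATA motif (26.5%) occurred in 3, Slc38a9, Slc7a14 and Slc7a7. Genes with alternative starts had several windows, so counts of genes are not like the shares of windows. Counted by window, the 31 genes had 42 windows. Of these, 3 held the response element core, 7 the E-box and 13 the GATA motif. A match describes letters in the window and does not show a bound site. Bases after the start or further upstream were not searched, so a window without a match does not show that the gene lacks an element. The only window of Slc3a2 (chr19:8713898-8714147) lies inside the annotated gene, with 169 of its 250 bases in exons. The bases before the outermost annotated start of Slc3a2 were therefore not searched. For Slc7a1, 1 of its windows lies wholly within annotated exons.

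The groups overlapped for Slc7a11 and for Slc1a4. Slc7a1, Slc1a4 and Slc7a8 had negative log2 fold changes, and none of them passed in edgeR. The windows of Slc7a11, Slc7a1, Slc1a4 and Slc7a8 are shown 5′ to 3′ on the minus strand. They are chr3:50443615-50443863, chr5:148399905-148400154, chr11:20332714-20332963 and chr14:54781947-54782136. Bases within annotated exons are left off, and capitals mark the response element core on either strand.
Slc7a11: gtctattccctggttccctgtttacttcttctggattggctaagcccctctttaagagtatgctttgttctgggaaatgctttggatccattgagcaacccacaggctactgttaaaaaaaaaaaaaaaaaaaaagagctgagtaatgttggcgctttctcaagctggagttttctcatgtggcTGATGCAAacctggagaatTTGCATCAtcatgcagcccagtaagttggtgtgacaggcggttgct
Slc7a1: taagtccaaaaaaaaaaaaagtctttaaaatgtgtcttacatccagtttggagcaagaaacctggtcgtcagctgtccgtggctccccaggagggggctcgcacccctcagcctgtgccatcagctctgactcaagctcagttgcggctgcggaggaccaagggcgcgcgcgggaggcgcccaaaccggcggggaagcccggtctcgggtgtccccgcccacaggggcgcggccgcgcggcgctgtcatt
Slc1a4: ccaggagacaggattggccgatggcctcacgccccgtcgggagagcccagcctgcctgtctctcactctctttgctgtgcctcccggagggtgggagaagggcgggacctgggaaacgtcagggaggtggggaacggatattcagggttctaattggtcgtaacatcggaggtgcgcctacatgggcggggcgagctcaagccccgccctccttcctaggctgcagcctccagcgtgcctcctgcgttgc
Slc7a8: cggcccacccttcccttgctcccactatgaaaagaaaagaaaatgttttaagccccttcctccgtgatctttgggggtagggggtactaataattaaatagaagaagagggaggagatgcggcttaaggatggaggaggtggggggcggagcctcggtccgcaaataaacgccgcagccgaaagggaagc
In Slc7a11 the first copy reads along the gene, from 66 to 59 bases before the start, and the second on the opposite strand, from 47 to 40 bases before it. The other 3 windows hold none of the 3 motifs.

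Slc7a1 encodes CAT1, the main carrier of arginine and lysine in most cells (chromosome 5, 148327410 to 148399904, minus strand). Its level was 284, 392 and 270.2 CPM in the WT libraries 2, 3 and 4, and 189, 208 and 259 CPM in the iKO libraries 3, 4 and 33. WT 3 stood above the rest, and the gap between the nearest WT and iKO libraries was small. The log2 fold change was -0.53 (SE 0.19, edgeR adjusted p = 0.263) and -0.34 without WT 3. The other cationic carriers were scarce. Slc7a2, which encodes CAT2, had 0.339 ± 0.146 and 0.300 ± 0.168 CPM (SD, n = 3; log2 fold change -0.18, SE 0.60). Slc7a3, which encodes CAT3 and lies on the X chromosome, had 0.138 to 0.483 CPM in WT and 0.489 to 0.824 CPM in iKO libraries (log2 fold change 1.07, SE 0.51, edgeR adjusted p = 0.383). The related gene Slc7a4 had 0.227 to 0.253 and 0.289 to 0.448 CPM (log2 fold change 0.59, SE 0.37). Of the exon sequence of Slc7a4, 13.3% is shared with P2rx6 on the opposite strand, and the library kit does not mark strand.

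In the Slc38 family, the sodium-coupled neutral amino acid carriers, the neighbouring genes Slc38a1 and Slc38a2 differed in how far the groups were apart. Slc38a1 encodes SNAT1, a glutamine importer (chromosome 15, 96571418 to 96642913, minus strand). It had the lowest log2 fold change of the 24 tested transporters, -1.88 (SE 0.49). Its level was 42.5, 38.7 and 87.9 CPM in the WT libraries 2, 3 and 4, and 7.10, 23.2 and 15.6 CPM in the iKO libraries 3, 4 and 33. The groups did not overlap, and libraries within a group differed widely. The mean level was 56.4 ± 27.4 against 15.3 ± 8.06 CPM (SD, n = 3). The edgeR adjusted p was 0.168 and the DESeq2 adjusted p 0.00163. The log2 fold change ranged from -2.30 without iKO 4 to -1.41 without WT 4.

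Slc38a2 encodes SNAT2, the inducible carrier of the same class, and lies 44.5 kb from Slc38a1 on the same strand. It was the most abundant transporter by count, at 519, 825 and 517 CPM in the WT libraries 2, 3 and 4 and 452, 548 and 662 CPM in the iKO libraries 3, 4 and 33. The groups overlapped, and the log2 fold change of -0.16 (SE 0.23) turned to 0.10 without WT 3. The level of Slc38a1 per kilobase was 0.0420, 0.0241 and 0.0872 of that of Slc38a2 in the WT libraries 2, 3 and 4. In the iKO libraries 3, 4 and 33 it was 0.00805, 0.0217 and 0.0121, so the ratios did not overlap. This pair was compared after its values were seen and the difference was not tested.

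The other Slc38 genes had small differences or few reads. Slc38a10, a widely expressed member, had 88.5, 63.3 and 87.4 CPM in the WT libraries 2, 3 and 4 and 72.6, 92.6 and 72.6 CPM in the iKO libraries 3, 4 and 33. These overlapped (log2 fold change -0.01, SE 0.17, and 0.004 with upper quartile scaling). Slc38a6 had 4.24 to 4.98 CPM in WT and 5.04 to 6.43 CPM in iKO libraries, without overlap (log2 fold change 0.35, SE 0.20, edgeR adjusted p = 0.476). Slc38a3, which encodes the glutamine carrier SNAT3 of liver and kidney, had 0.231, 0.0380 and 0.227 CPM in WT 2, 3 and 4. It had 0.480, 0.444 and 0.306 CPM in iKO 3, 4 and 33, from 77 reads in all (log2 fold change 1.46, SE 0.68).

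For transporters of the lysosome the groups overlapped. Slc38a9, the arginine sensor that signals to mTORC1, had 8.49 ± 1.77 and 8.27 ± 1.64 CPM (SD, n = 3; log2 fold change -0.04, SE 0.24). Slc38a7, a lysosomal glutamine and asparagine exporter, had 19.1 ± 1.38 and 19.5 ± 4.58 CPM (SD, n = 3; log2 fold change 0.03, SE 0.19). Slc36a1, the proton-coupled carrier PAT1, had 14.4 to 17.2 CPM over all 6 libraries (log2 fold change -0.06, SE 0.13). Its relative Slc36a4 had 7.65 to 10.1 CPM (log2 fold change -0.03, SE 0.18). Slc7a14, a lysosomal member of the Slc7 family, had 10.1 ± 2.90 and 12.5 ± 1.94 CPM (SD, n = 3; log2 fold change 0.30, SE 0.24). The edgeR adjusted p-values of these 5 genes lay between 0.630 and 0.962, which does not show that the levels are equal.

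In the Slc1 family, Slc1a4 encodes ASCT1, a carrier of alanine, serine and cysteine (chromosome 11, 20302180 to 20332713, minus strand). Its level was 42.3, 66.5 and 31.7 CPM in the WT libraries 2, 3 and 4, and 22.1, 20.6 and 37.2 CPM in the iKO libraries 3, 4 and 33. The groups overlapped, since iKO 33 exceeded WT 4. The log2 fold change was -0.81 (SE 0.33, edgeR adjusted p = 0.321), -0.47 without WT 3 and -1.13 without iKO 33. Slc1a5 encodes the glutamine carrier ASCT2 and had 6.18 to 7.62 CPM in WT and 3.77 to 5.82 CPM in iKO libraries, without overlap (log2 fold change -0.43, SE 0.24, edgeR adjusted p = 0.446). Per kilobase, Slc1a4 was 4.42 to 10.1 times as abundant as Slc1a5 in WT libraries and 3.77 to 6.79 times in iKO libraries. The glutamate carrier gene Slc1a3 had 2.11 CPM in iKO 33 and 0.0889 to 0.443 CPM in the other 5 libraries (log2 fold change 1.44, SE 1.04, and -0.61 without iKO 33).

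Of the Slc43 family, only Slc43a2, which encodes the neutral amino acid uniporter LAT4, had enough reads to be tested, at 15.3 ± 2.14 and 16.1 ± 2.97 CPM (SD, n = 3; log2 fold change 0.07, SE 0.19). Slc43a1 and Slc43a3 had 15 and 13 reads in all.

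Below the filter, Slc1a1 stood apart. It encodes a glutamate and cysteine carrier and had 1, 4 and 2 reads in the WT libraries 2, 3 and 4 and 97, 11 and 75 reads in the iKO libraries 3, 4 and 33. The iKO libraries differed widely, and iKO 4 fell just short of the level the filter asks for. In the fit without a filter its log2 fold change was 4.66 (SE 1.01, edgeR adjusted p = 0.122). Of its exon sequence, 31.9% is shared with 4430402I18Rik on the opposite strand, and that gene was at 0 to 0.0667 CPM. Slc1a7 had 3, 11 and 6 reads in WT 2, 3 and 4 and 5, 21 and 21 in iKO 3, 4 and 33. Slc1a2, Slc1a6, Slc38a4 and Slc7a15 had 10, 2, 19 and 17 reads in all. No read was counted for Slc36a2, Slc36a3, Slc38a5, Slc38a8, Slc38a11, Slc7a9, Slc7a10, Slc7a12 or Slc7a13. For these 9, a count of 0 allows up to 0.0221 CPM in the libraries labelled WT together and 0.0186 CPM in those labelled iKO together, taking 3 counts as the limit and counting error only.

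Genes of the same physiology outside the 6 families were also read from the fit. Of 14 tested other amino acid carriers of the plasma membrane, lysosome and mitochondrion, 8 were lower, and 1 had an unadjusted p under 0.05, the mitochondrial ornithine carrier gene Slc25a15 (log2 fold change -0.60, SE 0.19). Slc6a14, a carrier of neutral and cationic amino acids, had a log2 fold change of 1.00 (SE 0.63). Of 31 genes for amino acid sensing upstream of mTORC1, 14 were lower, and the 3 with an unadjusted p under 0.05 were higher. These were the leucine sensor gene Sesn2 (0.63, SE 0.14), the arginine sensor gene Gatsl3, also known as Castor1 (0.77, SE 0.19), and the Rag GTPase gene Rraga (0.29, SE 0.11). Gatsl3 had 13.4 to 15.7 CPM in WT and 20.5 to 31.9 CPM in iKO libraries. The medians were -0.12 and 0.02, beside 0.01 over all tested genes, and no gene of these lists passed in edgeR. DESeq2 called 0 of the carriers and 2 of the sensing genes. These counts are near the shares over all tested genes, 7.32% higher and 7.7% lower at this p and 6.12% called by DESeq2.

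The list on amino acid deprivation and ATF4 had 28 of 30 genes with a negative log2 fold change, 93.3%, where 48.8% of all tested genes had one. Its median was -0.27, and no gene passed in edgeR. At an unadjusted p under 0.05, 12 genes (40.0%) were lower and 1 higher, beside 7.7% and 7.32% of all tested genes. The 1 higher gene, named after its value was seen, was Ddit4, an inhibitor of mTORC1 (log2 fold change 0.86, SE 0.30). DESeq2 called 2 of the 30, Asns and Iars, both lower, which is near its share of 6.12% over all tested genes. Asns, which makes asparagine, had 166 to 215 CPM in WT and 127 to 133 CPM in iKO libraries (log2 fold change -0.55, SE 0.12). The tRNA synthetase genes Iars, for isoleucine, and Eprs, for glutamate and proline, had log2 fold changes of -0.42 (SE 0.10) and -0.61 (SE 0.19). The summed level of the list was 5067 to 6147 CPM in WT and 4258 to 4553 CPM in iKO libraries. Among the 5 transporters named above as ATF4 targets, Slc7a5, Slc3a2 and Slc7a1 had log2 fold changes of -0.77 to -0.46, and Slc38a2 and Slc7a11 of -0.16 and 0.06.

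For glutathione and cystine use, 8 of 15 genes were lower (median -0.07), 3 lower and 1 higher at an unadjusted p under 0.05. The 1 higher gene, named after its value was seen, was Ggt1 (2.49, SE 1.03), at 0 to 0.277 CPM in WT and 0.2000 to 0.612 CPM in iKO libraries. DESeq2 called 3 of the 15, where it called 6.12% of all tested genes. These 3 were Gclc, the first enzyme of glutathione synthesis (-1.28, SE 0.27), Cth, which makes cysteine from cystathionine (-1.06, SE 0.29), and glutathione reductase Gsr (-0.80, SE 0.22). Cth had 47.1 to 64.3 CPM in WT and 17.1 to 38.7 CPM in iKO libraries, while the cystine carrier gene Slc7a11 overlapped between groups. For glutamine, arginine and branched-chain amino acid metabolism, 15 of 22 genes were lower (median -0.19), 2 lower and 1 higher at an unadjusted p under 0.05. Gls2, a glutaminase, had 9.45 to 14.2 CPM in WT and 3.91 to 5.87 CPM in iKO libraries (log2 fold change -1.26, SE 0.24). Bckdha, a subunit of branched-chain keto acid dehydrogenase, stood at 0.43 (SE 0.12) and the proline synthesis gene Aldh18a1 at -0.65 (SE 0.20). DESeq2 called Gls2 and Bckdha. The counts of this last list at this p and by DESeq2 are also near those shares over all tested genes, and no gene of the 2 lists passed in edgeR.

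**Figure D5:**
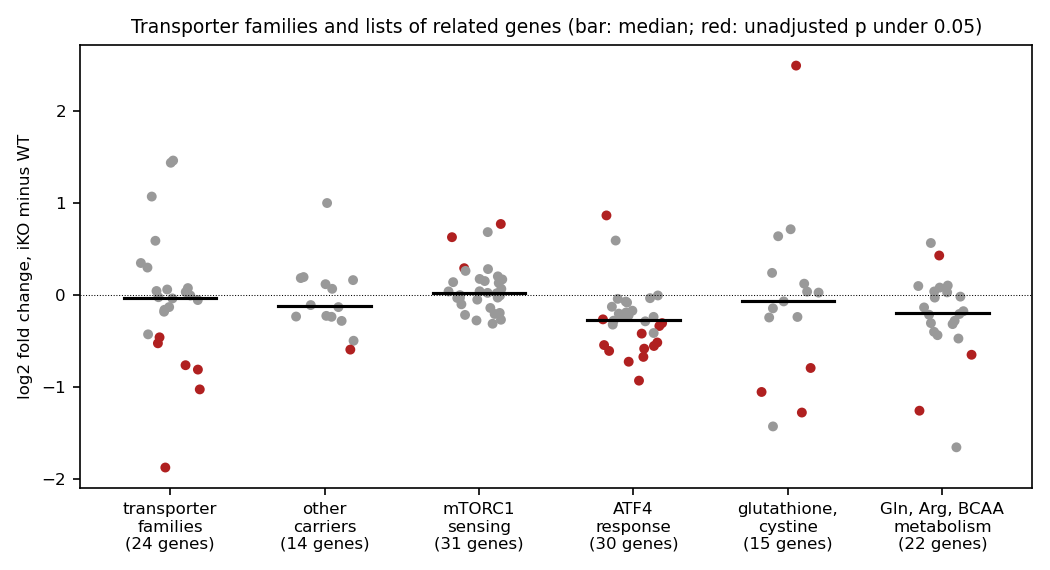
Log2 fold change (libraries labelled iKO minus libraries labelled WT, vertical axis) of the tested transporters and of the genes in 5 related lists, 1 point per gene, with red for an unadjusted p under 0.05 and a bar for the median. The transporters have a median of -0.03 with 6 red points below 0, and the ATF4 list has the lowest median, -0.27.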

How the data were processed

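RNA libraries (TruSeq RNA v2, per the labels' protocols) came from 3 WT and 3 iKO samples. The submitters' processing notes name the mm10 build, TopHat2, HTSeq, DESeq2 and DESeq, without roles; versions, annotation and strand setting are not given in the sources used. The counts end in HTSeq's summary rows. The deposited counts are whole reads per gene symbol. HTSeq summary rows, 27.4% to 35.5% of all counts, were left out. A second deposited table holds the authors' own comparison: mean signal after normalisation, log2 fold changes with SE, a Wald score and p-values. The column numbered 33 matches no iKO title and was used as an iKO replicate without a number.

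Counts were analysed with edgeR 4.0.16 in R 4.3.3: filterByExpr (minimum count 10, leaving 12672 genes), TMM scaling, and the robust quasi-likelihood test by group, two-sided, with Benjamini-Hochberg adjustment at 0.05 over all tested genes. SE is the absolute log2 fold change over the root of F. CPM uses TMM-scaled library sizes, and exon lengths come from GENCODE vM21 (mm10). DESeq2 1.42.0 and limma 3.58.1 (voom) were alternatives, with other scalings, filters, a block and each library left out. On simulated data the edgeR fit found 54 of 100 genes simulated at 2-fold and 97 of 100 simulated at 4-fold. The changed genes were drawn only from well-expressed genes, so these rates do not cover scarce transporters such as Slc7a7 and Slc38a3. They are averages over genes of unlike spread, with 100 genes changed at each size, where the real fit called 43. They are not rates for single transporters: Slc38a1, 3.68-fold higher in WT libraries, had an edgeR adjusted p of 0.168. In the simulation the fit made 11 false calls in 12528 genes. No libraries agreed within sampling noise (smallest chi-square per degree of freedom 51.7).

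The genes and lists were chosen with earlier results of these data known. Every tested transporter is named; those with an unadjusted p under 0.05, those DESeq2 calls and the 8 highest per kilobase have values by library, and each related list names up to 3 genes with the smallest p. One gene that this rule names is not reported here. Intervals and limits cover counting error only.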

Additional observations from a re-analysis of the deposited data

How the results depend on the processing

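Among all tested genes, edgeR called 43, 76 with no filter on low counts, 775 by DESeq2, 152 at an adjusted p under 0.1, and 7 (without WT 2) to 31 (without WT 3) when 1 library was left out. Of the transporters 0 were called, and 1 with no filter (Slc7a5), 3 by DESeq2 and 1 at an adjusted p under 0.1. The median over tested transporters was -0.03, 0.028 with no filter, 0.020 with limma-voom, and -0.098 to 0.046 with 1 library left out. The 6 transporters lower at an unadjusted p under 0.05 became 3 to 6 with 1 library left out. The 0 higher became 1 with no filter, 2 with limma-voom and 0 to 2 with 1 library left out. The replicate numbers give no shared animal or batch. In deviations from the group means of all 6 libraries, same-numbered libraries deviated together with correlations of 0.30 and 0.66, over 2 pairs only. The differently numbered WT 2 and iKO 3 correlated at 0.33 and WT 3 and iKO 33 at 0.23. The remaining differently numbered pairs lay between -0.57 (WT 4 and iKO 3) and -0.04 (WT 4 and iKO 33). A replicate block was fitted on the 4 libraries numbered 3 and 4 in both groups. That block called 103 genes and 2 transporters (Slc38a1 and Slc7a8), with 1 higher at an unadjusted p under 0.05, where the same 4 libraries with no block called 4 genes. A block on 4 libraries leaves very few residual degrees of freedom, so these calls do not show that equal numbers pair the libraries. With the block the log2 fold changes that turned sign were Slc1a3 -0.44, Slc36a4 0.078, Slc38a10 0.14, Slc38a7 -0.24, Slc43a2 -0.042, Slc7a11 -0.33, Slc7a2 0.61 and Slc7a7 0.48. With no block in these 4 they were Slc1a3 -0.52, Slc36a4 0.079, Slc38a10 0.13, Slc38a7 -0.23, Slc43a2 -0.033, Slc7a11 -0.28, Slc7a2 0.60 and Slc7a7 0.42. Upper quartile scaling gave Slc38a10 0.0040, and limma-voom gave Slc36a4 0.030, Slc38a10 0.013 and Slc7a7 0.10. Leaving out 1 library gave ranges across 0 of -0.61 to 1.96 for Slc1a3, -0.098 to 0.021 for Slc36a1, -0.11 to 0.10 for Slc36a4, -0.15 to 0.072 for Slc38a10, -0.31 to 0.10 for Slc38a2, -0.18 to 0.16 for Slc38a7, -0.17 to 0.14 for Slc38a9, -0.019 to 0.22 for Slc43a2, -0.13 to 0.30 for Slc7a11, -0.58 to 0.25 for Slc7a2, -0.057 to 0.17 for Slc7a6 and -0.61 to 0.30 for Slc7a7. Of 376 single values under alternatives, 327 kept direction and call, 43 turned sign in 12 transporters, and 6 passed the threshold in the same direction. The causes were not tested. Transporters with under 100 reads in all are limited by depth.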
